A study of Mus musculus with 158 samples.

Results

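The genes described here are 3 fibroblast growth factor receptors (Fgfr1, Fgfr2 and Fgfr3), the ligand gene Fgf2 and 5 genes of inhibitors of receptor signalling (Spry1, Spry2, Spry4, Spred1 and Spred2). They are 9 of the 21956 gene rows in a table of read counts from single mouse brain cells, and all 9 have a row. They were chosen by symbol, with levels of these same cells already known, among them the astrocyte level of Spry1. Their levels are therefore a description, and nothing is tested on them.

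The study sequenced polyA RNA of single cells drawn into a patch pipette, amplified in 3 rounds of antisense RNA amplification, from mice that received no treatment. The 158 libraries come from 149 cells in 6 groups. The 86 astrocytes came from cortical cultures of 7 days (3 cells), 12 days (70 cells), 14 days (5 cells) and 15 days (8 cells). The 13 cultured cortical neurons had 6, 10, 13 or 15 days in culture (3, 3, 4 and 3 cells), and the 8 cultured hippocampal neurons had 15 days. Acute slices gave 22 cortical neurons, 15 neurons of hippocampal field CA1 and 5 of field CA3. The hippocampal cultures and the 7-day astrocytes are labelled C57/BL6, and all other cells C57/BL6/N. Animal age is not given in the sources used here. No label names an animal or a culture, so each group counts as 1 sample and no difference carries a test.

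Fibroblast growth factors bind receptor tyrosine kinases at the cell surface, with heparan sulfate as a cofactor, and one main route from the receptor to the nucleus is the RAS to ERK kinase cascade. Sprouty and Spred proteins dampen this cascade, and several Sprouty genes are themselves switched on by it, so that they act as feedback inhibitors. In brain, FGFR3 is widely used as a marker of astrocytes and their precursors, and FGF signalling is known for its part in astrocyte development and in hippocampal wiring.

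The upstream sequences of Fgfr2, Spry1 and Spry2 are shown because each of these genes was detected in most astrocytes and the Fgfr2 window differs from the other two in CpG content. Each is the 250 bases before the RefSeq gene start in build GRCm38.p6, 5′ to 3′ on the strand of the gene, with CpG dinucleotides in capitals. The windows lie at chr7:130266809-130267058 (minus strand), chr3:37639697-37639946 (plus strand) and chr14:105896820-105897069 (minus strand).
Fgfr2: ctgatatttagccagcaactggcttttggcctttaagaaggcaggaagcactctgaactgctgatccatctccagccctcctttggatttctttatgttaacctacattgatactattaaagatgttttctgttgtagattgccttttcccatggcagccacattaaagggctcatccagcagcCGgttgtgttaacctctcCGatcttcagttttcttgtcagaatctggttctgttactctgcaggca
Spry1: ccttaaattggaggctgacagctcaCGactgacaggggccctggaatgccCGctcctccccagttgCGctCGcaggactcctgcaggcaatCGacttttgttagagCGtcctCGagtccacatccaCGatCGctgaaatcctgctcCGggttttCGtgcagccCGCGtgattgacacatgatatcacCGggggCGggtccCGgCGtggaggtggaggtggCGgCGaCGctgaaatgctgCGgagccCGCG
Spry2: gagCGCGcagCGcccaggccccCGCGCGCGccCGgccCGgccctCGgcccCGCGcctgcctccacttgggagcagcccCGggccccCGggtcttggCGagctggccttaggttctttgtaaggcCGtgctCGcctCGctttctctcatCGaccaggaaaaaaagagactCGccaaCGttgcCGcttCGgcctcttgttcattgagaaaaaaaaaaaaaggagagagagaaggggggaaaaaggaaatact
The Spry1 and Spry2 windows hold 23 CpG dinucleotides each, and the Fgfr2 window holds 2. Over 32817 promoter windows of this length the median was 6, with quartiles of 2 and 16. The windows of Fgf2, Spred1 and Spred2 hold 20, 31 and 12, and the 2 windows listed for Fgfr3 hold 19 and 24. Short motifs were searched on both strands and have no match in the windows of these 7 genes. An ETS motif, CCGGAAG, is in 6.90% of all windows. An AP-1 motif, TGACTCA, is in 4.46%. A CRE motif, TGACGTCA, is in 1.55%, and neither of the last pair holds the other. Fgfr1 and Spry4 were not matched.

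The astrocytes gave 1089796 to 38680739 counts each and the neurons 535369 to 34292582. A level is given in counts per 1000000 counts (CPM), either in 1 cell or summed over the cells of a group. A gene counts as detected in a cell when it has at least 5 counts after the cell was thinned to 1000000 counts. A total of 148 cells reach that depth. All 86 astrocytes had a larger share of 20 astrocyte markers than of 20 neuron markers detected. So did 3 of 13 cultured cortical neurons, 3 of 22 cortical slice neurons and 1 of 14 CA1 neurons, 5 of these 7 cells by 1 or 2 markers. The 3 cultured cells still had 60% to 80% of the neuron markers detected, against at most 35% in any astrocyte. The summed astrocyte marker level of a cell reached 95103 CPM in cortical slice neurons, 27848 CPM in cultured cortical neurons, 21297 CPM in astrocytes and 962 CPM in cultured hippocampal neurons, with medians of 2502, 4970, 6082 and 500.4 CPM. Inhibitory neuron markers summed to 9659 to 23932 CPM in the 8 cultured hippocampal neurons, and to at most 12134 CPM in any other neuron.

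**Figure D1:**
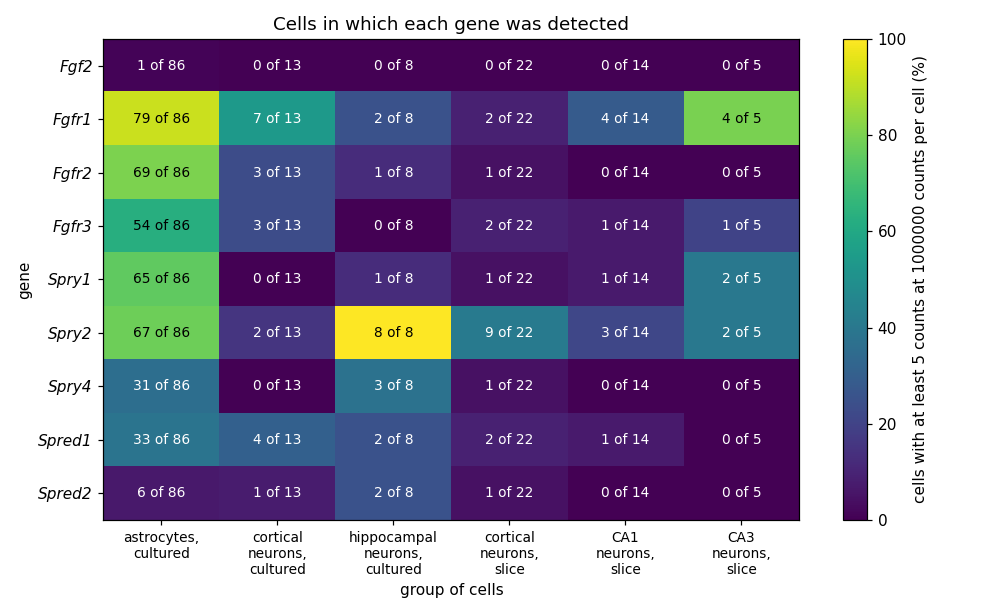
Number of cells with at least 5 counts of each gene at 1000000 counts per cell, by group; the colour gives the percentage of the group's cells. Fgfr1, Fgfr2, Fgfr3, Spry1 and Spry2 were each detected in 54 to 79 of 86 astrocytes, and Spry2 in all 8 cultured hippocampal neurons.

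Fgf2, which encodes a broadly acting growth factor, was close to absent from the counts. Its 860 counts in astrocytes came almost all from 1 cell. That 12-day astrocyte held 859 counts, or 78.2 CPM, and the remaining count lay in a 7-day astrocyte. The other 84 astrocytes had none, so the summed level was 0.674 CPM with the 1 cell and 0.000791 CPM without it. The Fgf2-positive cell had 7 of the other 8 genes detected, as had 11 more astrocytes, with Fgfr1 at 476 CPM, Fgfr2 at 384 CPM and Spry1 at 146 CPM. Neurons gave 8 counts of Fgf2 in all groups together, in 5 cells, and none in cultured hippocampal or CA3 neurons. Detection in 0 of 8 hippocampal neurons allows a share of up to 36.9%, with cells taken as independent (exact binomial 95% interval).

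Fgf2 (ENSMUSG00000037225, chr3:37348477-37410106, plus strand) overlaps Nudt6 on the other strand over 5125 bases. Nudt6 had 12 counts in the Fgf2-positive astrocyte and a summed level of 12.1 CPM over all astrocytes. The shared stretch reaches the 3′ end of Fgf2. The strand setting of the counting is not given in the sources used here, so reads in the shared stretch cannot be told apart. Whether counts of Fgf2 were lost there was not tested.

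Among the other secreted ligands, a list of 18 genes that includes Fgf2, the leading transcript in astrocytes was Fgf1, at a summed 265 CPM and detected in 74.4% of the cells. Fgf18 stood at 1.21 CPM and Fgf9 at 0.283 CPM. Fgf9, a ligand made by neurons in the developing brain, was detected in 8 of 8 cultured hippocampal neurons at a summed 245 CPM, and in 2 of 86 astrocytes. The ratio is taken here as log2 of summed CPM + 1, and a gene counts as higher or lower from 1 upward in size. By that rule 1 of the 10 measured ligands was higher in astrocytes than in cultured cortical neurons, Fgf1 at 4.22, and 1 was lower, Fgf9 at -4.23, beside 29.8% higher and 19.9% lower among all genes measured in both groups. The intracellular FGF homologous factors bind sodium channels and are not secreted. All 3 measured ones were lower in astrocytes than in cultured cortical neurons. Against cultured hippocampal neurons Fgf14 was within the limit, at -0.56. Against the cortical neurons Fgf13 was at a summed 42.8 CPM to 585 CPM and Fgf12 at 29.4 CPM to 109 CPM. Without the 1 neuron with most of the counts of each, the neuron levels were 202 and 63.9 CPM.

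**Figure D2:**
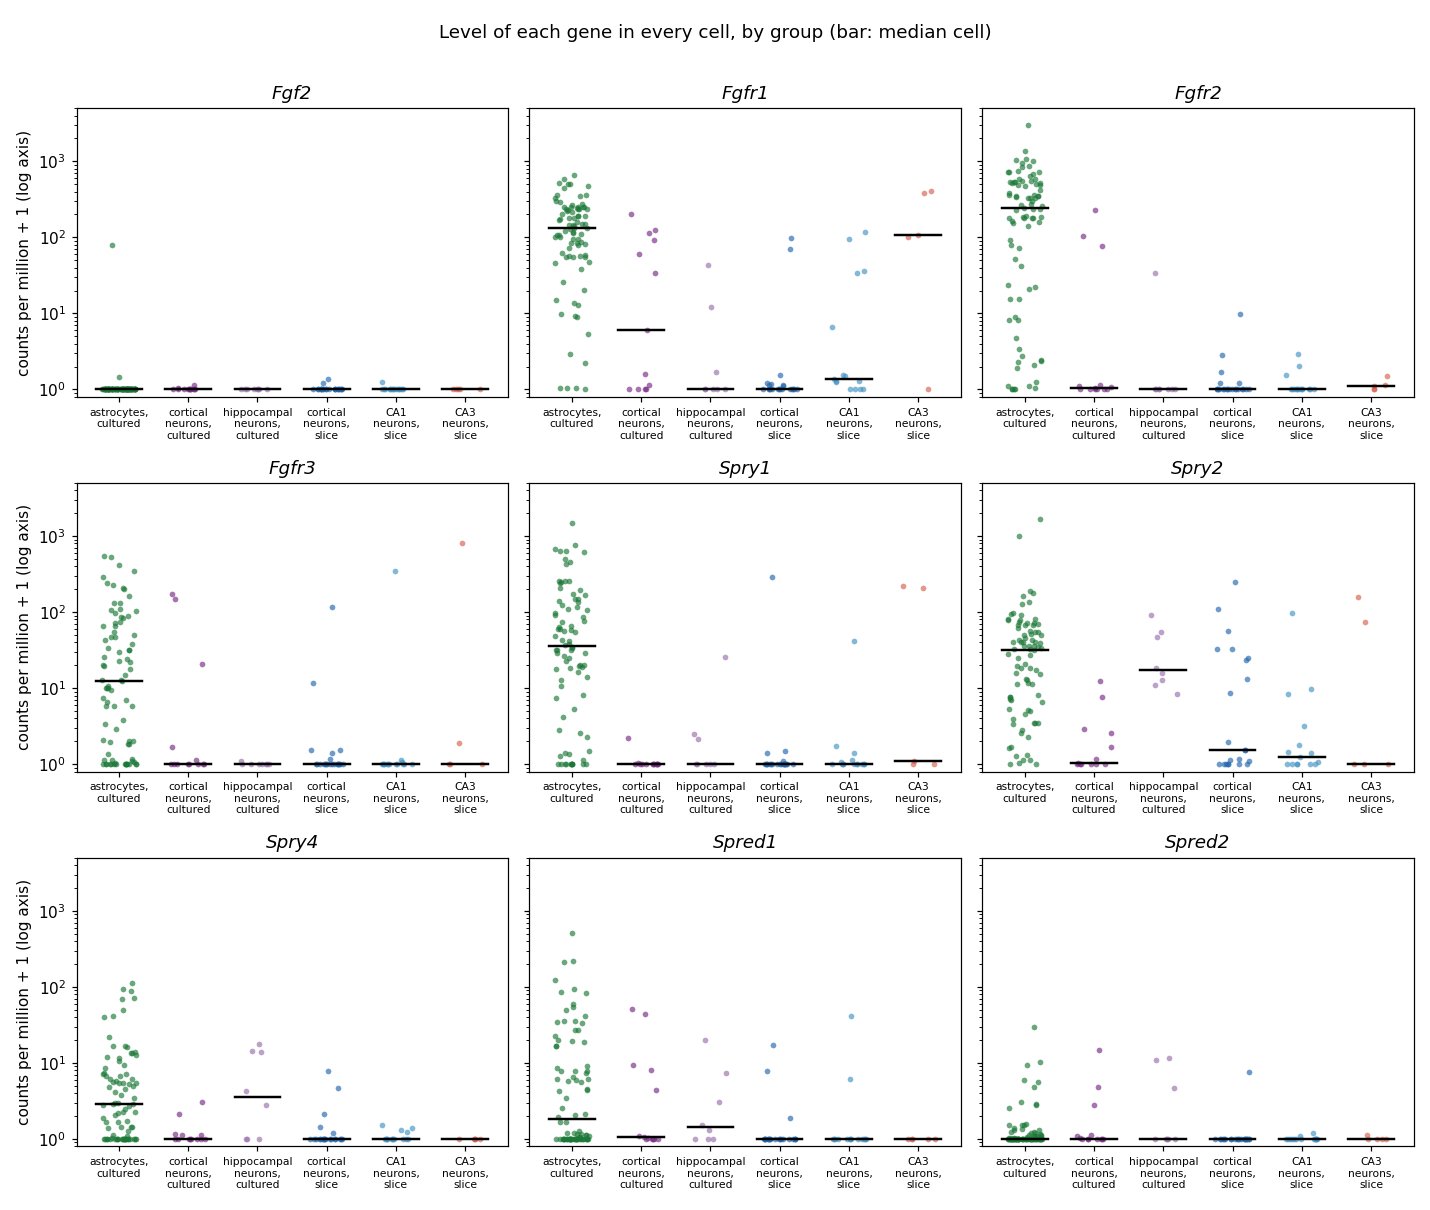
Level of each of the 9 genes in every cell, in CPM + 1 on a log axis, by group; each point is a cell and the bar is the median cell. Fgfr2 is high in most astrocytes, with a median of 241 CPM, and near 0 in most neurons, while Spry2 lies above 7 CPM in every cultured hippocampal neuron.

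Astrocytes expressed all 3 receptors, and Fgfr2 had the highest summed level. Fgfr1 (ENSMUSG00000031565, chr8:25518759-25575718, plus strand) ranged from 0 to 659 CPM over the 86 astrocytes, with a median of 132 CPM, and was detected in 79 (91.9%). It overlaps the noncoding genes Gm31288 and Gm16159, not analysed here, over 26088 and 7411 bases, and their reads cannot be told apart without the strand setting. Fgfr2 (ENSMUSG00000030849, chr7:130162451-130266808, minus strand) ranged from 0 to 3044 CPM, with a median of 241 CPM and detection in 69 cells (80.2%). Fgfr3 (ENSMUSG00000054252, chr5:33721724-33737068, plus strand) was the most uneven of the 3, from 0 to 542 CPM, with a median of 11.5 CPM and detection in 54 cells (62.8%). The summed levels were 366 CPM for Fgfr2 (exact Poisson 95% interval 365 to 367), 164 CPM for Fgfr1 (163 to 164) and 65.4 CPM for Fgfr3. These intervals cover counting error only. A single 12-day cell held 20.7% of the Fgfr2 counts, and without it the Fgfr2 level was 297 CPM.

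Per kilobase of exon, which allows the 3 genes to be compared, Fgfr2 stood at a summed 36.5 CPM per kb, Fgfr1 at 16.9 and Fgfr3 at 9.14. Fgfr2 was the highest receptor per kb in 48 of 86 astrocytes, Fgfr1 in 32 and Fgfr3 in 6. Whether amplification from the 3′ end shifts these values was not tested. All 3 receptors were detected together in 48 cells (55.8%), Fgfr1 and Fgfr2 without Fgfr3 in 17, and Fgfr1 alone in 10. Only 2 astrocytes had no receptor detected. Of the cells with Fgfr3, 96.3% also had Fgfr1 and 90.7% had Fgfr2. The summed receptor level of a cell ranged from 0.0104 to 310 CPM per kb, with a median of 51.3.

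**Figure D3:**
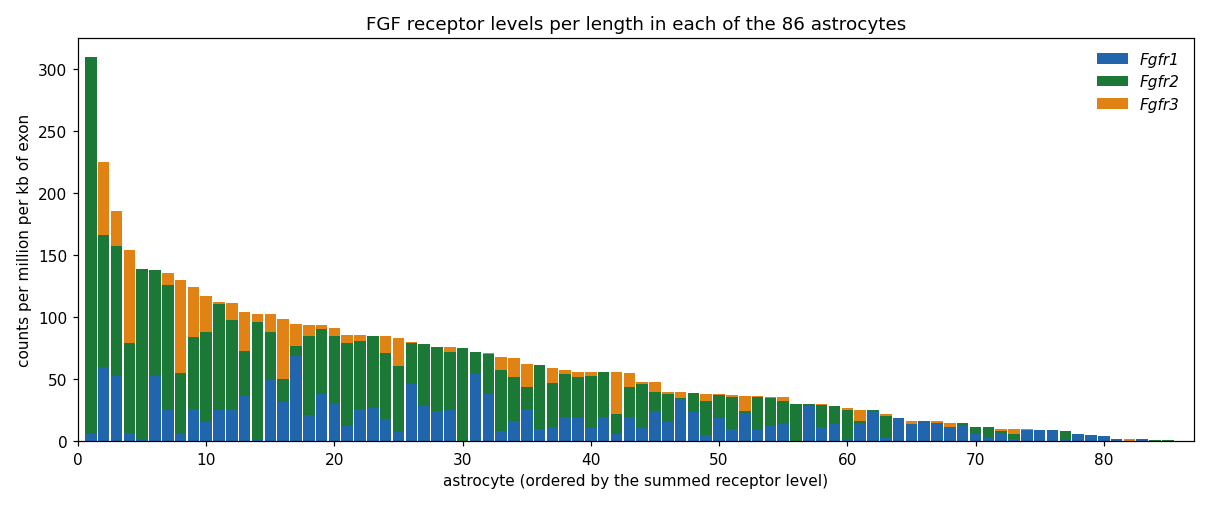
Level of Fgfr1, Fgfr2 and Fgfr3 in each of the 86 astrocytes, in CPM per kb of exon, stacked and ordered by their sum. Fgfr2 makes up the tallest bars, up to a sum of 310, and the quartiles of the sum are 16.8 and 85.1.

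By summed level neurons held less of each receptor in most groups, with CA3 as the exception for Fgfr1 and, through 1 cell, for Fgfr3. Fgfr1 was detected in 7 of 13 cultured cortical neurons, with a median of 5.13 CPM and a highest cell of 202 CPM. It was detected in 2 of 8 cultured hippocampal neurons, 2 of 22 cortical slice neurons and 4 of 14 CA1 neurons, with medians of 0 to 0.377 CPM. In the 5 CA3 cells Fgfr1 read 0, 99.9, 106, 387 and 406 CPM. All 5 values lie inside the astrocyte range, and 4 are above the highest values of 96.2 and 42.7 CPM in cortical slice and cultured hippocampal neurons. The highest CA1 and cultured cortical neurons, at 118 and 202 CPM, are above the CA3 cells at 99.9 and 106 CPM. The CA3 median of 106 CPM is below the astrocyte median of 132 CPM. In order of the summed level Fgfr1 was 285 CPM in CA3 neurons, 164 in astrocytes, 44.1 in cultured cortical neurons, 18.1 in CA1 neurons, 9.51 in cortical slice neurons and 6.45 in cultured hippocampal neurons. CA3 neurons and astrocytes overlap over nearly their whole spread. The last 3 groups also overlap. Their detection shares have intervals of 8.39% to 58.1%, 1.12% to 29.2% and 3.19% to 65.1%, with cells taken as independent.

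Fgfr2 was detected in 3 of 13 cultured cortical neurons, at 229, 102 and 75.6 CPM, and stood under 1 CPM in the other 10. In cultured hippocampal neurons all 369 counts lay in 1 cell, at 32.6 CPM. Slice neurons were nearly without it, with summed levels of 0.440 CPM in cortex, 0.180 CPM in CA1 and 0.109 CPM in CA3, the last resting on 3 counts. The cells at 229 and 75.6 CPM were among those with more astrocyte than neuron markers detected. In the 10 cultured cortical neurons outside that class the summed Fgfr2 level was 5.05 CPM. Fgfr3 there was 7.24 CPM against 52.7 CPM in the 3 cells inside it, and Fgfr1 35.2 against 78.9 CPM. Of these 10 cells 1, at 102 CPM of Fgfr2 and 146 CPM of Fgfr3 and with 60% of the astrocyte markers detected, held nearly all counts of both, and the other 9 stood under 1 CPM. The part of astrocyte RNA in these values was not tested.

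The Fgfr3 counts of neurons lay in a few cells. Cultured cortical neurons had it in 3 cells, at 174, 146 and 19.8 CPM. A single CA1 cell at 351 CPM held 99.9% of the 1819 counts of its group, and a single CA3 cell at 810 CPM held 99.8% of the 3991 counts there. That CA3 value is above every astrocyte. In cortical slices 1 cell at 116 CPM carried 90.5% of the counts, and this cell was 1 of the 3 with more astrocyte markers. Cultured hippocampal neurons had 1 count of Fgfr3 in 87931511, which allows up to 0.0634 CPM (exact Poisson 95% bound).

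Sprouty genes were detected in 77 of 86 astrocytes in some combination. Spry1 (ENSMUSG00000037211, chr3:37639947-37644599, plus strand) ranged from 0 to 1482 CPM with a median of 34.9 CPM and was detected in 65 cells (75.6%). Spry2 (ENSMUSG00000022114, chr14:105891947-105896819, minus strand) ranged from 0 to 1660 CPM with a median of 31.1 CPM and was detected in 67 cells (77.9%). The 2 highest Spry2 cells, at 1660 and 997 CPM, stand well above the next cell, at 187 CPM. In this order the cells had 35%, 45% and 15% of the astrocyte markers detected, against a median astrocyte of 67.5%. Spry4 (ENSMUSG00000024427, on chromosome 18) was lower, from 0 to 110 CPM with a median of 1.87 CPM, and was detected in 31 cells. Spry1 and Spry2 were detected together without Spry4 in 32 cells, all 3 in 24, and none of them in 9. Of the cells with Spry4, 93.5% also had Spry1.

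The neurons differed in which Sprouty gene they held. Spry2 was detected in all 8 cultured hippocampal neurons, from 7.46 to 90.5 CPM with a median of 16.3 CPM. Each of these cells lies inside the astrocyte range. Of the 8, 6 had no FGF receptor detected. Spry4 was detected in 3 of them, and its summed level of 8.04 CPM was close to the 9.70 CPM of astrocytes. Cortical slice neurons had Spry2 in 9 of 22 cells, with a highest cell of 245 CPM, while cultured cortical neurons had it in 2 of 13, with a highest cell of 11.2 CPM.

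Spry1 was the inhibitor with the sharpest contrast between astrocytes and cultured cortical neurons. The 13 neurons gave 14 counts in all, 13 of them in 1 cell with more astrocyte than neuron markers, and no cell reached detection. The summed level was 0.0669 CPM (95% interval 0.0366 to 0.112) against 123 CPM in astrocytes. In cortical slices 99.5% of the Spry1 counts lay in 1 cell at 291 CPM. In CA3 it stood at 205 and 219 CPM in 2 cells and at 0 to 0.0992 CPM in the other 3, and in CA1 at 41.1 CPM in 1 cell and under 1 CPM in the other 14.

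The Spred genes, whose products block RAF activation at the membrane, were sparser. Spred1 (ENSMUSG00000027351, chr2:117121071-117182279, plus strand) ranged from 0 to 509 CPM in astrocytes with a median of 0.816 CPM, and was detected in 33 of 86 cells. It was detected in 4 of 13 cultured cortical neurons, at a summed 7.30 CPM against 20.4 CPM in astrocytes. Spred2 (ENSMUSG00000045671, chr11:19924442-20024026, plus strand) was detected in 6 astrocytes, with a highest cell of 28.3 CPM. Its summed level was 0.895 CPM in astrocytes, 2.03 CPM in cultured cortical neurons and 4.20 CPM in cultured hippocampal neurons. These last 2 values rest on few cells, since 77.2% and 60.2% of the counts lay in 1 cell each. Spred3, a related gene that is not among the 9, stood at 53.4 CPM in CA1 neurons, and at 14.1 CPM without the 1 cell that held 75.8% of its counts there.

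Against cultured cortical neurons, 7 of the 9 genes were higher in astrocytes and 0 were lower. Of all 17473 measured genes 29.8% were higher and 19.9% lower by the same rule. Measured means 10 or more counts over the pair of groups, found in 3 or more cells. The log2 ratios were 6.86 for Spry1, 4.10 for Fgfr2, 3.74 for Spry2, 2.80 for Spry4, 1.92 for Fgfr3, 1.87 for Fgfr1 and 1.37 for Spred1. Fgf2 at 0.72 and Spred2 at -0.68 stayed within the limit. Without 1 of the neurons Fgfr2 was at 5.18 and Fgfr3 at 2.88, without another Spred1 was at 2.52 and Spred2 at 0.31, and without a further one Spry2 was at 4.51. The median of the 9 genes was 1.92, against 0.08 for all measured genes. Astrocytes and these neurons overlap in every gene, since some astrocytes had 0 counts of each. All astrocyte libraries were basecalled with bcl2fastq2, the newer of 2 basecalling programs, and against the neurons basecalled with it 6 genes were higher and 1 lower, Spred1 being at 0.77 and Spred2 at -1.02. Fibroblast and meningeal markers also differed between these groups, with 9 of 9 measured higher in astrocytes and sums of 104 to 25434 CPM per cell against 0.239 to 4932 CPM. All 10 had counts in astrocytes and Lum had none in the neurons. Their part in the values of the 9 genes was not tested.

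Against cultured hippocampal neurons, 5 of 8 measured genes were higher in astrocytes and 1 was lower, beside 27.8% and 22.4% of all measured genes. The higher ones were Fgfr2 at 6.14, Fgfr3 at 6.04, Spry1 at 4.78, Fgfr1 at 4.47 and Spred1 at 2.02. Spred2 was the lower one, at -1.46, and without the hippocampal cell that held most of its counts the ratio was -0.76. Spry2 at 0.94 and Spry4 at 0.24 stayed within the limit, and without 1 hippocampal cell Spry2 was at 1.23. Leaving out 1 hippocampal cell each moved Fgfr2 to 8.52, Spry1 to 6.44, Fgfr1 to 5.87 and Spred1 to 3.00. With DESeq2 size factors 7 were higher and 0 lower, Spred2 being at -0.46, and all measured genes had a median of 0.72 in place of 0.04. Region also differs between these groups, as does the strain label for all astrocytes but those of 7 days. Cell type cannot be told apart from them here.

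Between neuron groups the counts rest on few cells. Cortical slice neurons had 2 of 8 genes higher and 5 lower than cultured cortical neurons, beside 24.7% and 37% of all measured genes. Spry2 at 2.74 and Spry1 at 2.93 were the higher ones, but without the 1 slice cell with Spry1 its ratio was -0.05, and among libraries of bcl2fastq2 it was -0.08. Fgfr2 at -3.89 and Fgfr1 at -2.10 were lower, and without 1 cell each they were at -2.82 and -3.12. Another 3 genes were lower, and each passed back within the limit when 1 cultured cell was left out, Fgfr3 from -1.10 to -0.14 (but to -3.34 without the slice cell at 116 CPM), Spred1 from -1.81 to -0.65 and Spred2 from -1.29 to -0.30.

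CA1 neurons had 1 of 8 genes higher and 2 lower than cortical slice neurons, beside 22.6% and 39.8%. Fgfr3 was at 1.58, at -2.99 without its 1 CA1 cell and at 3.82 without the cortical cell at 116 CPM. Spry1 was at -2.02, and at 0.95 without its 1 cortical cell. Among libraries of bcl2fastq2 2 genes were higher, Fgfr3 at 1.56 and Spry1 at 1.22, and 0 were lower, Spry2 being at -0.81. Spred1, at 2.08 there, had counts in only 2 cells and so was not measured. Spry2 was at -1.61, at -0.999 without the cortical cell at 245 CPM and at -3.58 without 1 CA1 cell. Fgfr1, at 0.86, was at 1.88 without the cortical cell at 96.2 CPM, and Spred1, at 0.62, at 1.09 without another. Without 1 CA1 cell each they were at -0.43 and -0.95. With DESeq2 size factors 3 genes were higher and 2 lower, Fgfr1 at 1.52 and Spred1 at 1.30 being the added ones.

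CA3 neurons had 4 of 5 measured genes higher than CA1 neurons and 0 lower, beside 24.8% and 46.2%. The ratios were 5.61 for Spry1, 3.90 for Fgfr1, 2.59 for Fgfr3 and 2.16 for Spry2. Fgfr3 was at -4.22 without the CA3 cell of 810 CPM, at 7.15 without the CA1 cell of 351 CPM, and at -4.75 among libraries of bcl2fastq2. Without 1 CA1 cell each, Spry1 was at 6.52, Fgfr1 at 5.19 and Spry2 at 4.13, and without 1 CA3 cell each Spry1 was at 4.69 and Spry2 at 1.46. Fgfr1 was detected in 4 of 5 CA3 cells and 4 of 14 CA1 cells. Spred1 had 206 counts in CA1, in 2 cells, and 0 in CA3, and so was not measured. Its CA1 level of 2.65 CPM was 24.2-fold the floor of 0.109 CPM, taken as 3 counts in the whole of CA3. That value rests on 1 CA1 cell with 91.7% of the counts, and without it the CA1 level was 0.232 CPM. Of the astrocyte markers, 4 of 20 had no count in CA3, and the list summed to 156 to 7822 CPM per cell there against 0 to 11144 CPM in CA1.

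Cultured hippocampal neurons had 3 of 8 genes higher and 3 lower than cultured cortical neurons, beside 30.3% and 25.3%. All 3 receptors were lower, Fgfr3 at -4.11, Fgfr1 at -2.60 and Fgfr2 at -2.04, and all 3 Sprouty genes were higher, Spry2 at 2.80, Spry4 at 2.56 and Spry1 at 2.08. Without 1 cultured cortical cell of the class with more astrocyte markers Fgfr2 was at -0.96, and without 1 hippocampal cell Spry1 was at 0.42. Spred1, at -0.65, was past the limit with equal cell weights (-1.10), bcl2fastq2 libraries (-1.25), TMM (-1.38) and DESeq2 (-1.88). It was at -1.63 without 1 hippocampal cell and at 0.50 without 1 cortical cell, and Spred2, at 0.78, at 1.77 without 1 cortical cell. Spry2 held 26.1 CPM in the hippocampal cells and 2.91 CPM in the cortical ones. Among cells of 15 days only, 8 hippocampal and 3 cortical, the 3 receptors were lower. Higher there were 5 genes, the 3 Sprouty genes with Spred1 and Spred2. Those 3 cortical cells were basecalled with the older program. Of their counts, 1 cell held 94.5% for Fgfr1 and 96.9% for Fgfr3, and another held 99.8% for Fgfr2. Both of these cells had more astrocyte than neuron markers detected. Without the first of them Fgfr1 was at 1.75 CPM there, against 6.45 CPM in the hippocampal cells. Inhibitory neuron markers summed to 9659 to 23932 CPM per cell in the hippocampal cells, with a median of 18211 CPM. In the cortical cells they summed to 0.596 to 10145 CPM, with a median of 591 CPM. Strain label, region and this marker level differ together between these groups and cannot be told apart.

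The 3 astrocytes of 7 days stood apart in Fgfr3. Their values were 209, 537 and 542 CPM. Of the 70 astrocytes of 12 days 5 reached the lowest of these, and the highest of the 70 stood at 420 CPM with a median of 9.24 CPM. Fgfr2 in the 7-day cells was 489, 725 and 725 CPM, inside the 12-day range of 0 to 3044 CPM. Fgfr1 was 53.7, 61.1 and 148 CPM, and 30 of the 70 12-day cells were above the highest of these. Fgfrl1, a receptor without a kinase domain, went with Fgfr3 and had a summed 383 CPM at 7 days and 77.1 CPM at 12 days.

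By the ratio rule 1 of 8 measured genes was higher at 7 than at 12 days and 4 were lower, beside 12% and 43.7% of all measured genes, whose median was -0.63. Fgfr3 was at 3.21. Spred1 at -2.37, Spry2 at -1.55, Spry1 at -1.52 and Fgfr1 at -1.39 were lower. With DESeq2 size factors 2 genes were higher, Fgfr3 at 3.89 and Fgfr2 at 1.37, and 1 lower, Spred1 at -1.81, and the median of all measured genes was -0.33. With TMM factors, or with each cell at equal weight, 2 were higher and 3 lower. Without the 7-day cell with 4.10 CPM of Spry2 the ratio of Spry2 was -0.81 and that of Spred2 -1.01 in place of -0.93. Fgfr2, at 0.68, was at 1.05 without the 12-day cell of 3044 CPM. Spry4 was at -0.65, at -2.34 without 1 of the 7-day cells, and at 1.40 when each cell had equal weight.

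Other genes of the pathway also differed at 7 days. Of 11 ERK-responsive genes 9 were lower and 0 higher, beside 43.7% and 12% of all measured genes. Their median was -2.94 against -0.63 over all measured genes. Other size factors were not tried on this list. Ccnd1, the cyclin that drives entry into the cell cycle, read 1.07, 19.5 and 106 CPM in the 7-day cells against a 12-day median of 1466 CPM. Fgf1 was not detected in any 7-day cell, with a highest value of 1.90 CPM, against a 12-day median of 49.6 CPM. Markers of dividing cells summed to 607 to 9904 CPM per cell at 7 days (median 4724) and to 0.674 to 11240 CPM at 12 days (median 220), with none of the 10 genes at 0 in either. Fibroblast and meningeal markers summed to 1395 to 22973 CPM at 7 days and 104 to 25434 CPM at 12 days, with medians of 19287 and 2494 CPM. At 7 days 2 of these 10 genes, Col3a1 and Lum, had no count. Their part in the 7-day values was not tested, and the 7-day cells carry another strain label, so age and strain cannot be told apart.

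**Figure D4:**
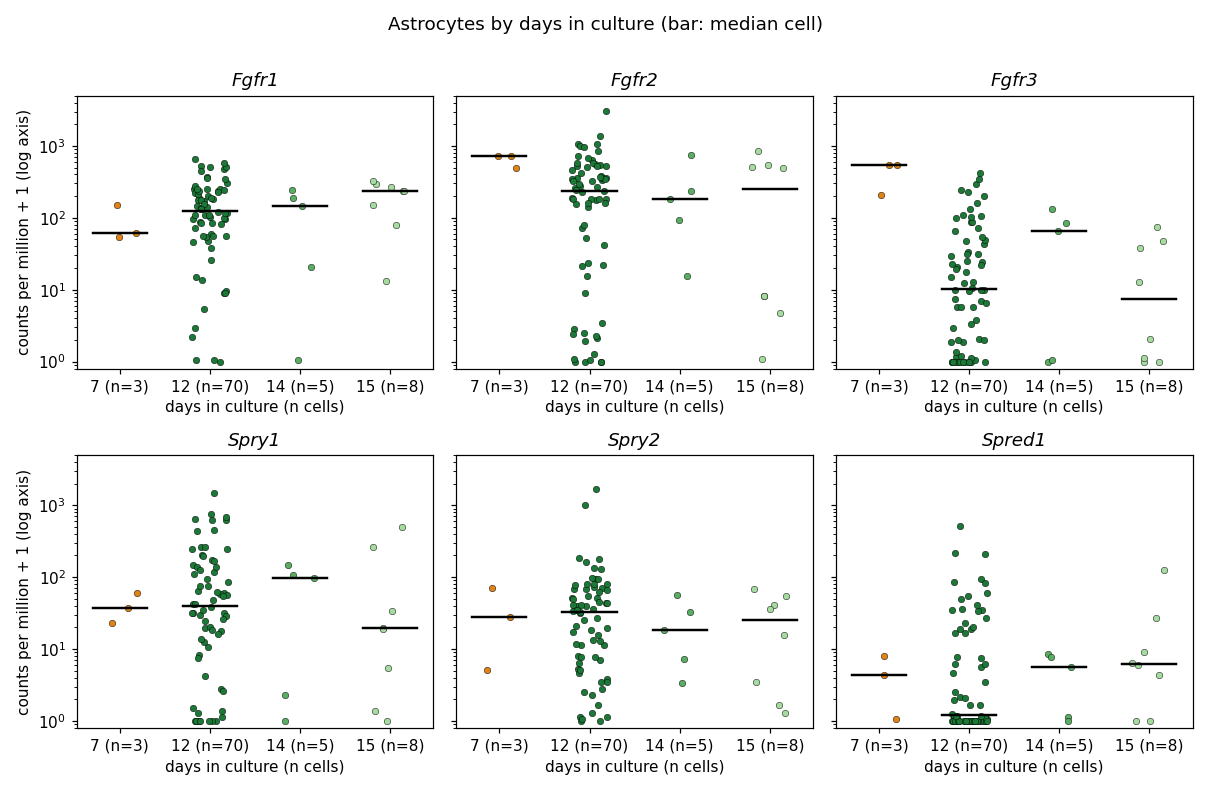
Levels of 6 of the genes in astrocytes by days in culture, in CPM + 1 on a log axis; each point is a cell and the bar is the median cell. The 3 cells of 7 days hold the 2 highest Fgfr3 values of all astrocytes, 537 and 542 CPM, and lie inside the 12-day range for the other 5 genes.

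At 14 days 0 of 8 genes were higher than at 12 days and 2 were lower, beside 14.3% and 24% of all measured genes. Spred1 was at -2.10, with 5 values of 0 to 7.63 CPM against a 12-day highest of 509 CPM. Spry2 was at -1.31, with values of 2.39, 6.28, 17.6, 31.3 and 55.8 CPM, and at -0.98 without the highest 12-day cell. Fgfr3 differed widely among the 5 cells, at 0, 0.0404, 64.7, 83.8 and 132 CPM. Without 1 of the 14-day cells Fgfr2 was at -1.72 in place of -0.95, without another Spry1 was at -1.27 in place of -0.85, and without a further one Spry4 was at -1.26 in place of 0.67.

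Fgf1 was high in all 5 cells of 14 days, from 600 to 993 CPM, and only 6 of 70 12-day cells reached the lowest of them.

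At 15 days 0 of 8 genes were higher than at 12 days and 1 was lower, beside 12.6% and 19.5%. Fgfr3 was the lower one, at -1.07, with a summed 25.7 CPM against 55.2 CPM, and at -0.81 without 1 12-day cell. Fgfr1 was detected in 8 of 8 cells, from 12.0 to 328 CPM. The other ratios lay between -0.86 and 0.65, and 5 of them depended on 1 cell. Without the 15-day cell at 493 CPM Spry1 was at -1.21, and without another 15-day cell Spry2 was at -1.19 and Spred1 at -1.17. Spry4, at 0.65, was at -0.71 without the 15-day cell at 92.1 CPM, and Spred2, at 0.016, at -0.96 without another.

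Per astrocyte, the median number of the 9 genes detected was 5, with quartiles of 4 and 6. The medians of the neuron groups were 2 in cultured cortical, 2.5 in cultured hippocampal, 0.5 in cortical slice, 0 in CA1 and 2 in CA3 neurons. The number of all genes detected per cell had medians of 4931 in astrocytes, 4459 in cultured cortical, 7498 in cultured hippocampal and 1813 to 2180 in slice neurons. The lower slice values thus come with fewer genes of any kind, whose part was not tested, while the cultured hippocampal neurons had more genes detected than astrocytes.

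Across the 86 astrocytes the receptors and inhibitors varied together only in part. The highest Pearson correlations of log2(CPM + 1) at equal depth were 0.41 for Fgfr1 with Spry2 and for Fgfr2 with Fgfr3. Next were 0.40 for Fgfr2 with Spry2 and for Spry1 with Spry4. Against the 8650 genes compared below, the median correlation of these genes was 0.12 to 0.21. The top percentile began at 0.48 for Fgfr1, 0.46 for Fgfr2 and Fgfr3, 0.41 for Spry2, 0.38 for Spry1 and 0.37 for Spry4. Of the pairs named, only Spry1 with Spry4 lay above this level for both genes. Both pairs with Fgfr2 lay below it for both genes, and Fgfr1 with Spry2 lay below that of Fgfr1. The cells come from 1 group and may share cultures, and each gene also went with the number of genes detected, at 0.46 for Fgfr1, 0.49 for Fgfr2 and Fgfr3, 0.28 for Spry1 and 0.38 for Spry2. Fgfr3 went with the summed astrocyte markers at 0.54, and Fgfr1 and Fgfr2 at 0.36. The 3 receptors went with the sum of 8 markers of oligodendrocyte precursors at 0.40 to 0.44. Not all 8 had counts. At 7 days Pdgfra, Gpr17 and Sox10 had none, although the list summed to 695 to 2106 CPM per cell. Gpr17, Sox10 and Neu4 had none at 14 and 15 days, and only Neu4 had none at 12 days. Spry1 and Spry4 went with fibroblast and meningeal markers at 0.35 each.

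Among 8650 genes detected in at least 20% of astrocytes, the patterns most like Fgfr1 were those of the receptor phosphatases Ptprf (0.68) and Ptprg (0.64) and of the bicarbonate transporter Slc4a4 (0.64), over 86 cells. For Fgfr2 they were Wdr13, Id4 and Zranb2 (0.57 to 0.58), and for Fgfr3 Slc39a12 (0.61), Cenpc1 (0.58) and the neurotrophin receptor Ntrk2 (0.56). For Spry1 they were F3, Tnfaip1 and Samd4b (0.47 to 0.51), for Spry2 Ppt1, Wls and Camk2g (0.53 to 0.56), for Spry4 Fzd5, Gpr39 and Pign (0.46 to 0.51), and for Spred1 Ppcdc, Pcyt1a and B3galt6 (0.52 to 0.55). The highest 1 in 100 genes began at 0.48 for Fgfr1 and at 0.37 to 0.46 for the other genes named here. For Fgf2 and Spred2, detected in 1 and 6 astrocytes, the nearest genes were Anxa6, Msra and Sephs2 (0.35 to 0.40) and Cwf19l1, Elovl6 and Zfp748 (0.45 to 0.47), which rest on these few cells.

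Of the pathway around these genes, astrocytes held more transcripts of ERK-responsive genes than cultured cortical neurons, 9 of 11 higher and 0 lower beside 29.8% and 19.9% of all measured genes, with a median of 2.32 against 0.08. They include Ccnd1, at 2291 CPM against 105 CPM, and Etv5, an ETS factor downstream of FGF receptors, at 168 against 34.6 CPM. Egr1, a gene of the immediate early response, was at 416 and 324 CPM, and Fos at 133 and 18.3 CPM. Of 11 measured other feedback inhibitors 7 were higher and 1 lower, among them the ERK phosphatase Dusp6, at 254 against 19.8 CPM, and Rasa1, a RAS GTPase activator, at 285 against 64.9 CPM. Without 1 cultured neuron each, Etv5 was at 17.5 CPM, Fos at 9.10, Dusp6 at 7.89 and Rasa1 at 42.9 CPM there. In CA1 neurons Dusp6 stood at 318 CPM, and at 132 CPM without the 1 cell that held 61.1% of its counts. The adaptors and kinases from RAS to ERK were spread evenly, with 5 higher, 4 lower and 13 of 22 within the limit, and a median of 0.13. Of 16 measured co-receptors and proteoglycans 9 were higher and 4 lower, and of 15 other growth factor receptor kinases 8 were higher and 3 lower, to be read against the same 29.8% and 19.9%.

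Against cultured hippocampal neurons, 10 of 11 ERK-responsive genes were higher in astrocytes, with a median of 2.74, beside 27.8% of all measured genes. Of 11 feedback inhibitors 4 were higher and 2 lower, near the 27.8% and 22.4% of all measured genes. Region, and for most astrocytes the strain label, differ between these groups too. In slice against cultured cortical neurons 3 of 10 ERK-responsive genes were higher and 3 lower, near the 24.7% and 37% of all measured genes. Fos was at 748 CPM in the cortical slice neurons and Egr1 at 641 CPM. CA3 neurons, with Fgfr1 at 285 CPM, had no count of Ccnd1 and 1 count of Etv5 in 27452025. Egr1 stood at 618 CPM there, detected in 2 of 5 cells, and Fos at 129 CPM, detected in 4 of 5 cells. Without the 1 cell with most of the counts of each, Egr1 was at 52.4 CPM and Fos at 22.9 CPM. Dusp6 stood at 216 CPM, at 56.2 CPM without the 1 cell at 1543 CPM, and was detected in 4 of 5 cells.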

How the data were processed

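Single mouse cells were measured by RNA sequencing of polyA RNA amplified in 3 rounds, and the authors deposited raw read counts per gene, 21956 genes by 158 libraries. Per the submitters' processing notes, reads were basecalled with bcl2fastq 1.8.4 or bcl2fastq2 2.17, aligned with STAR and counted with HTSeq on mm10 (GRCm38). Aligner and counter versions, strandedness and annotation are not given in the sources available. Groups and culture days come from the labels. The genes and lists were chosen with earlier results of these data known.

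In 9 cases a pair of libraries came from 1 cell (8 by title, 1 by its counts, log2 CPM correlation 0.945 to 0.999, the highest with other libraries being 0.621) and was summed, giving 149 cells. CPM are counts per 1000000 counts of a cell or of a summed group, with exact Poisson intervals. Detection shares come from cells thinned to 1000000 counts (seed 7) with exact Clopper-Pearson intervals. Both are at 95%. The Poisson intervals cover counting error only, and the detection intervals cover the sampling of cells taken as independent. Neither covers differences between animals or cultures. Log2 ratios use a pseudocount of 1 CPM. Alternatives were each cell at equal weight, TMM (edgeR 4.0.16) and DESeq2 1.42.0 size factors (R 4.3.3), pseudocounts of 0.1 and 5 CPM, no filter, the first library of each pair, the pair joined by its counts kept as 2 cells, bcl2fastq2 libraries, neurons chosen by markers, cells of 15 days, hippocampal titles without a final D, and single cells left out. For the count per astrocyte they were 1 or 10 counts, 500000 counts, no thinning, and 12 days. Leaving out every cell of both groups in turn was chosen after seeing the data. Ratios and thinning were tested on simulated data. Software was Python 3.11.15 with numpy 2.4.6, pandas 2.3.3, scipy 1.17.1 and matplotlib 3.10.9.

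All 9 genes are named. Of each pathway list, up to 4 genes of highest summed CPM in astrocytes and up to 2 in any neuron group could be named, and for each of the 9 the 3 genes of most similar pattern, leaving out predicted genes.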

Additional observations from a re-analysis of the deposited data

Results flagged for a closer look

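Of 30 sets of 4 to 10 cells examined, 8 held a cell that stood far from the others. The rule marks about 1 set in 20 by chance when values are normally distributed. These values are not, since many are 0, so the share that chance marks here is not known. In 5 of the 8 the nearest other cell was under 1 CPM. Among the 8 cultured hippocampal neurons, 1 cell had 32.6 CPM of Fgfr2 and the others 0. The Fgfr3 value of 0.0878 CPM there is a single count. Another hippocampal neuron had 24.3 CPM of Spry1, and the next cell 1.49 CPM. Among the 5 CA3 neurons, 1 had 0 CPM of Fgfr1 and the next 99.9 CPM, and another had 810 CPM of Fgfr3 and the next 0.928 CPM. The Spred2 value of 0.133 CPM in CA3 is again a single count. Among the 8 astrocytes of 15 days, 1 had 12 CPM of Fgfr1 and the next 77.3 CPM, and 1 had 4.54 CPM of Spred2 and the next 0.230 CPM.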

How the results depend on the processing

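No paired analysis was possible because the labels name no animal or culture, replicate numbers do not tie cells of different groups, and no result comes from a test. Of the counts of genes under the alternatives, 152 stayed within 1.5 times the main count and 27 did not. The median number of genes per astrocyte lay between 4 and 6. Against cultured cortical neurons, the number lower in astrocytes was 1 with a pseudocount of 0.1 CPM and with bcl2fastq2 libraries only. Against hippocampal neurons it was 0 with TMM, with DESeq2 and with a pseudocount of 5 CPM. Cortical slice against culture had 2 lower with a pseudocount of 5 CPM, and 1 higher with bcl2fastq2 libraries only. CA1 against cortical slice had 2 higher with equal cell weights and with bcl2fastq2 libraries only, 3 higher with DESeq2, 4 lower with a pseudocount of 0.1 CPM and 0 lower with bcl2fastq2 libraries only. CA3 against CA1 had 1 lower with bcl2fastq2 libraries only, and 0 to 1 when each CA3 cell was left out. Hippocampal against cortical culture had 5 higher in cells of 15 days. At 15 against 12 days 2 were lower with equal weights, TMM and DESeq2, and 0 with a pseudocount of 5 CPM. At 14 against 12 days 4 were lower with TMM and DESeq2, and 2 to 4 when each 14-day cell was left out. At 7 against 12 days 2 were higher with equal weights, TMM and DESeq2, and 1 lower with DESeq2.

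Of called ratios, those that changed sign did so with bcl2fastq2 libraries only or with 1 cell left out. With bcl2fastq2 libraries Spry1 was at -0.084 in cortical slice against culture and 1.22 in CA1 against cortical slice, and Fgfr3 at -4.75 in CA3 against CA1. With each cell left out in turn, Spry1 lay between -0.046 and 3.08 in cortical slice against culture and between -2.93 and 0.95 in CA1 against cortical slice. Fgfr3 lay between -2.99 and 3.82 in CA1 against cortical slice and between -4.22 and 7.15 in CA3 against CA1. The bcl2fastq2 setting leaves out the same cortical slice and CA3 cells. The cause of the other differences was not tested. TMM and DESeq2 moved the median of all measured genes by over 0.1 in several comparisons, most in hippocampal against cortical culture, from 0.15 to -0.54 and -1.09. Groups of 5 to 22 neurons are small, and a gene at 0 was not detectable at this depth.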
